A study of Homo sapiens with 6 samples.

Results

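The replication-dependent histone genes code for the H1, H2A, H2B, H3 and H4 proteins that package newly copied DNA. They were followed here in H358, an established line from a human non-small cell lung carcinoma that grows as epithelial cells. A member was any row of the value table with exactly 1 annotated gene symbol of the form H1-1 to H1-6, H2AC, H2BC, H3C or H4C followed by a number, with pseudogenes dropped. This gave 57 of the 18417 genes with 1 symbol: 6 of H1, 14 of H2A, 16 of H2B, 8 of H3 and 13 of H4. Each had a single probe set, the group of array probes summarised into 1 value. H4C14 and H4C15 had the same 6 values, so the 57 genes stand for 56 separate measurements. A further 13 protein-coding genes of these families (H2AC7, H2AC18, H2AC19, H2BC12L, H2BC15, H2BC18, H3C4, H3C6, H3C13, H3C14, H3C15, H4C11 and H4C12) were named only on probe sets that carry several symbols and were not counted as members.

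The study compared H358 cells that stably express green fluorescent protein (GFP, 3 arrays) with H358 cells that stably express TwistER (3 arrays). TwistER constructs fuse the Twist transcription factor to the hormone-binding part of the estrogen receptor, which holds the factor inactive until 4-hydroxytamoxifen (4OHT) is bound. Both lines received 100 nM 4OHT for 12 days, renewed at each passage, so the GFP cells carry the drug and an inserted gene as well. The titles call the GFP arrays before and the TwistER arrays after epithelial-mesenchymal transition (EMT), the loss of epithelial character that Twist can drive. Whether each line was a clone or a pool is not given in the sources used here, and TwistER cells kept free of 4OHT are not among these arrays. The promoter that drives either insert is not given either. Values are log2 expression, differences are TwistER minus GFP, and "rose" or "fell" is used only of a gene with a limma adjusted p under 0.05.

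Nucleosomes hold an H3-H4 tetramer and H2A-H2B dimers, and H1 binds the linker DNA between them. Replication-dependent histone genes lie in clusters, have no introns, and are transcribed mainly in S phase under NPAT, a co-activator switched on by cyclin E and CDK2. Their messenger RNAs usually end in a stem-loop bound by SLBP instead of a poly(A) tail, and are degraded when DNA synthesis stops. How the RNA was primed for labelling is not given in the sources used here, and priming from poly(A) tails would favour the minority of histone transcripts that carry one. Closely related histone genes can also share probes on such an array.

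The arrays of a group correlated at r = 0.982 to 0.996 over all genes. GFP replicate 1 was the array that stood apart in its group: it correlated with the other GFP arrays at r = 0.982, against r = 0.996 between those. Epithelial markers were measured in both lines but differed between them, with per-array medians over the 10 listed markers of 8.11 to 9.14 in GFP and 5.37 to 5.49 in TwistER, and 5 of the 10 fell, CDH1 and EPCAM among them, against 9 of the 10 without GFP replicate 1. Of 10 fibroblast markers 4 rose and 1 fell, with per-array medians of 4.42 to 4.62 in GFP and 4.98 to 5.03 in TwistER. Of 5 measured leukocyte markers 0 rose or fell, and PTPRC, which defines leukocytes, read 4.09 in GFP and 4.40 in TwistER, below or near the lower quartile of gene means (4.21). CD68 read 6.19 in GFP and 6.44 in TwistER, above that quartile. All 5 had positive differences, with a median of 0.25. Without GFP replicate 1, 1 leukocyte marker rose, PTPRC itself (0.48, limma adjusted p = 0.0407). The part of these marker shifts in the histone values was not tested.

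The median difference was negative in all 5 histone types, from -0.40 in H3 to -0.20 in H1, and members were called lower in 4 of them (H1, H2A, H2B and H3). Of the 57 genes 50 had a negative difference and 7 a positive one, and the median difference was -0.29, against 0.01 over all genes tested. In 26 members (45.6%) all 3 TwistER arrays lay below all 3 GFP arrays, where 14.5% of all genes did so, and in 0 members did they all lie above (13.9% of all genes). The limma test adjusted over 18417 genes called 8 members changed, all lower, where 8.83% of all genes changed. The 8 are 14.04% of the members, where 4.11% of all genes were called lower, and 0 members were called higher, where 4.72% of all genes were. Unadjusted p-values under 0.05 were found for 23 members with a lower value, where 11.1% of all genes had one, and for 0 with a higher value. The 8 genes that fell were H2AC1, H2BC1, H1-5, H2BC14, H2BC11, H3C10, H2AC6 and H3C11, at folds between 1.38 and 2.53. A lower level in a whole culture can come from fewer cells that hold the transcript or from less of it per cell, and these cannot be told apart here.

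**Figure D1:**
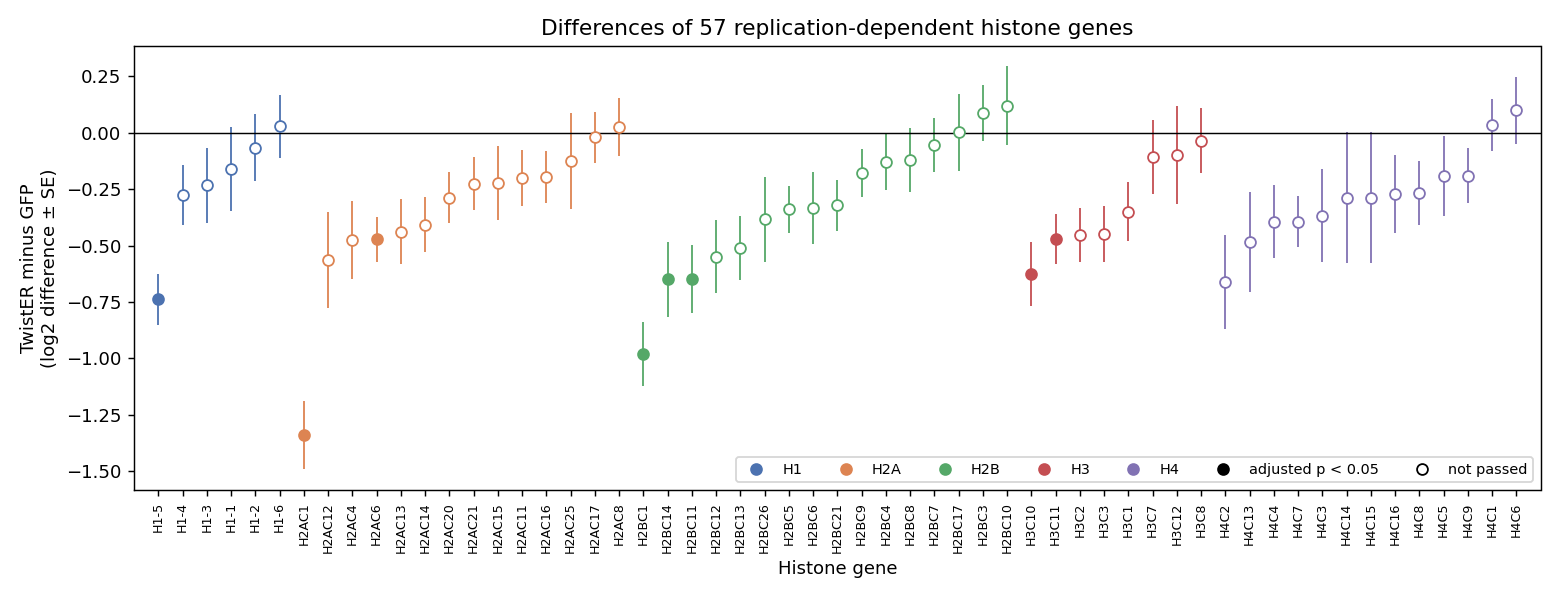
The vertical axis gives the TwistER minus GFP difference in log2 units with limma's SE (3 arrays per group), and the horizontal axis the 57 histone genes grouped by type and ordered by difference. Filled points are the 8 genes that passed the adjusted threshold, and 50 of the 57 points lie below 0.

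How many members were called depended on the arrays used. Without GFP replicate 1 the limma test called 15 members lower and 0 higher, where 8.09% of all genes were called lower and 6.97% higher, and the 15 included all 8. Leaving out any other array left 3 or 4 calls. There were 4 without GFP replicate 2, 4 without GFP replicate 3 and 4 without TwistER replicate 1. There were 3 without TwistER replicate 2 and 4 without TwistER replicate 3. Calls over all genes, in either direction, also became fewer in these fits. They numbered 1063, 1198, 912, 831 and 935 in that order, against 1627 with all arrays. The share of all genes called lower was not taken for these fits, so their histone counts have no matching background. H2AC1, H2BC1 and H1-5 kept their calls in each of these fits, while the other 5 each lost theirs without at least 4 of the arrays.

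The largest fall was in a neighbouring pair of genes on chromosome 6, H2AC1 and H2BC1, which are known for their expression in the testis. H2AC1, an H2A gene, read 8.30, 7.94 and 8.20 in GFP and 6.95, 6.55 and 6.91 in TwistER. The TwistER arrays thus lay well below all GFP arrays, a 2.53-fold fall (log2 difference -1.34 ± 0.15 SE, limma adjusted p = 0.00091). H2BC1, its H2B neighbour, read 7.56, 7.21 and 7.05 in GFP and 6.33, 6.24 and 6.32 in TwistER. It fell 1.97-fold (-0.98 ± 0.14, limma adjusted p = 0.00357), again without overlap. Among all genes ordered from the largest fall, H2AC1 stood at 112 and H2BC1 at 216. The third gene listed for the testis, the linker histone H1-6, read 3.90, 4.29 and 3.95 in GFP and 4.10, 4.19 and 3.93 in TwistER, a difference of 0.03 ± 0.14 that did not pass (95% interval -0.29 to 0.35). Its mean over 6 arrays lies below the lower quartile of gene means (4.21), and the sign of its difference changed under several alternatives.

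H2AC1 and H2BC1 are transcribed away from each other, and their starts lie 215 bases apart in RefSeq's promoter table (build GRCh38.p14). The 140 bases before each start are shown because these stretches overlap in part (chr6:25726637-25726702) in the 2 histone genes that fell most. H2AC1 lies on the minus strand (chr6:25726563-25726702) and H2BC1 on the plus strand (chr6:25726637-25726776). Each sequence is given 5′ to 3′ on its gene's strand. Capitals mark exact matches, on either strand, to the octamer ATTTGCAT, which reads ATGCAAAT on the other strand, to the CCAAT box, which reads ATTGG there, to the TATAAA box, to the AAACACA element of H1 genes, or to either E2F form, TTTGGCGC and the like TTTCGCGC. No one of these motifs contains another.
H2AC1: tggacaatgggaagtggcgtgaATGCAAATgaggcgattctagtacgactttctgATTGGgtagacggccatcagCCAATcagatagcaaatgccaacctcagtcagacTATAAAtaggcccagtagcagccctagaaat
H2BC1: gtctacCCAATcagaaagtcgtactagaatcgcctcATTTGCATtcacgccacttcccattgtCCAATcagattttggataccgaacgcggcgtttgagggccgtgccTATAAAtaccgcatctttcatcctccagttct
The octamer in both is the same 8 bases (chr6:25726673-25726680), read from opposite strands, and each gene has its own TATAAA about 30 bases before its start. The octamer is the motif bound by OCT1, the product of POU2F1, in H2B promoters. A match of letters does not show that a factor is bound.

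Of the 14 H2A genes, 2 fell (14.3%, against 4.11% of all genes) and 0 rose. Their median difference was -0.26. In 8 (57.1%, against 14.5% of all genes) the groups did not overlap, with TwistER lower. H2AC6, a gene known to give some polyadenylated transcript, was the second that fell. It read 9.24, 9.27 and 9.21 in GFP and 8.79, 8.72 and 8.79 in TwistER. This was a narrow spread in both groups around a 1.39-fold fall (-0.47 ± 0.10, limma adjusted p = 0.021), and its highest adjusted p was 0.105 when 1 array was left out. H2AC12 read 4.90, 4.67 and 4.74 in GFP and 3.69, 4.58 and 4.35 in TwistER. The groups did not overlap, TwistER replicate 1 was the lowest array by far, and the difference of -0.56 ± 0.21 did not pass (limma adjusted p = 0.163). H2AC20, of the chromosome 1 cluster, read 9.65, 9.83 and 9.95 in GFP and 9.55, 9.47 and 9.55 in TwistER, which gave -0.29 ± 0.12 and no call (limma adjusted p = 0.19). The fit that left out GFP replicate 1 gave -0.37 and called it lower (adjusted p = 0.0377). H2AC8 had 2.43, 2.07 and 2.30 in GFP and 2.25, 2.41 and 2.22 in TwistER, all deep in the lower quartile, and its 0.03 ± 0.13 did not pass. The other H2A genes had differences from -0.47 (H2AC4) to -0.02 (H2AC17), of which 0 passed. H2AC13, H2AC14, H2AC16 and H2AC21 had TwistER arrays all below the GFP arrays.

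Of the 16 H2B genes, 3 fell (18.75%, against 4.11% of all genes) and 0 rose. Their median difference was -0.33. In 8 (50%, against 14.5% of all genes) the TwistER arrays all lay below the GFP arrays. Besides H2BC1 the genes that fell were H2BC14 and H2BC11. H2BC14 read 6.15, 5.48 and 5.83 in GFP and 5.21, 5.19 and 5.12 in TwistER. The GFP arrays were spread widely and the TwistER arrays tightly, and the fall was 1.57-fold (-0.65 ± 0.17, limma adjusted p = 0.0471). H2BC11 read 5.59, 5.79 and 6.002 in GFP and 4.97, 5.11 and 5.36 in TwistER. It also fell 1.57-fold (-0.65 ± 0.15, adjusted p = 0.0312), and its highest limma adjusted p with 1 array left out was 0.127, against 0.162 for H2BC14. H2BC12, another gene with known polyadenylated transcripts, read 10.77, 10.35 and 10.34 in GFP and 9.88, 10.18 and 9.76 in TwistER. Its groups did not overlap, and the difference of -0.55 ± 0.16 did not pass (limma adjusted p = 0.0783). H2BC7 lay at 2.33, 2.10 and 2.14 in GFP and 2.02, 2.28 and 2.10 in TwistER, values that overlap near the bottom of the scale. H2BC10, H2BC3 and H2BC17 had the positive differences of this type (0.12 ± 0.18, 0.09 ± 0.12 and 0.003 ± 0.17), and 0 of these passed.

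**Figure D2:**
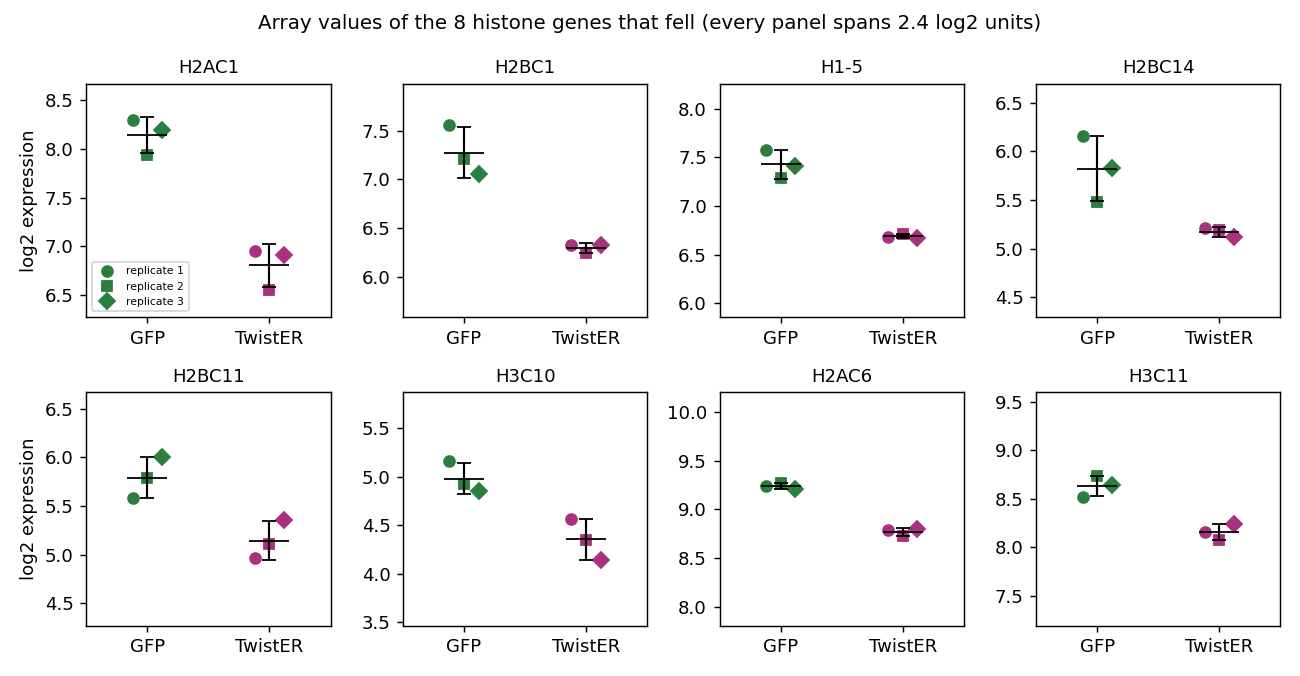
Each panel plots log2 expression (vertical axis, 2.4 log2 units in every panel) of 1 of the 8 histone genes that fell in the GFP and TwistER arrays, with symbols for replicates and black bars for mean ± SD (n = 3). In each panel the 3 TwistER points lie below the 3 GFP points, by the widest margin in H2AC1.

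H2A and H2B genes commonly lie as divergent pairs that share the stretch between their starts. In RefSeq's gene order 11 members' pairs of an H2A and an H2B gene were neighbours, and 9 of these were divergent, with starts 215 to 248 bases apart. In 7 of the 9 both genes had negative differences, and H2AC1 with H2BC1 was the pair in which both fell. In 3 pairs 1 partner fell: H2AC6 (-0.47 ± 0.10) with H2BC4 (-0.13 ± 0.12), H2BC11 (-0.65 ± 0.15) with H2AC11 (-0.20 ± 0.12), and H2BC14 (-0.65 ± 0.17) with H2AC14 (-0.41 ± 0.12). H2BC4 read 5.37, 5.71 and 5.69 in GFP and 5.50, 5.48 and 5.401 in TwistER, and its groups overlapped. The H2A gene had the lower difference in 3 of the 9 pairs. Whether 1 partner differed from the other was not tested.

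**Figure D3:**
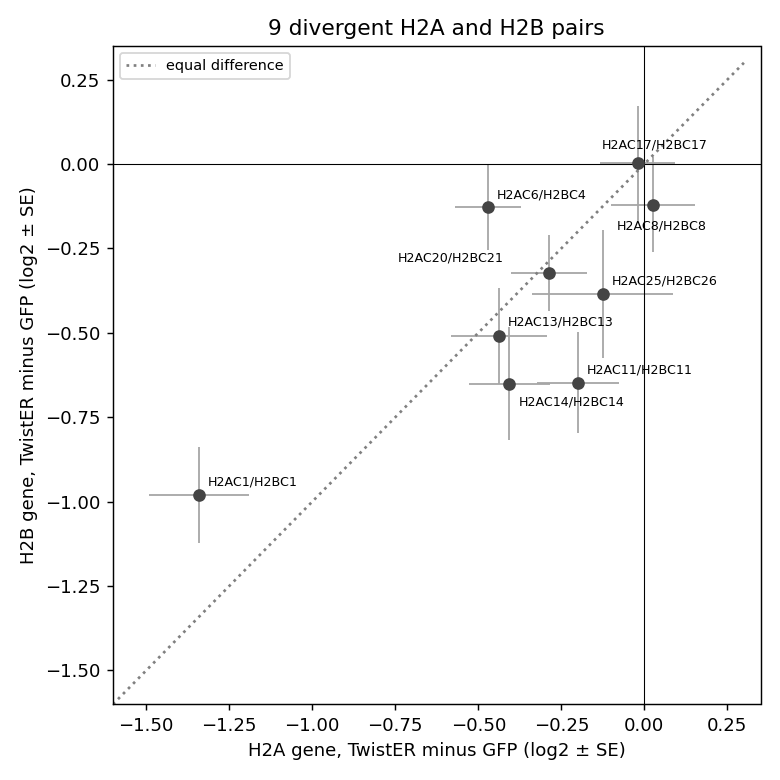
Each point is 1 of 9 divergent pairs, with the difference of the H2A gene on the horizontal axis and of the H2B gene on the vertical axis (TwistER minus GFP, log2, bars are SE). H2AC1 with H2BC1 lies far from the others at -1.34 and -0.98, and the dotted line marks equal differences.

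The promoter of H2BC11, minus strand, is shown with the octamer close to the TATAAA match, in the place known for H2B genes (chr6:27132796-27132935, GRCh38.p14, 140 bases before the start, capitals as above).
H2BC11: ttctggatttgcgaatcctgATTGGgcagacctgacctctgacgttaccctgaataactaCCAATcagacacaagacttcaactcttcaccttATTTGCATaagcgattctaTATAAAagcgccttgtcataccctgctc
RefSeq's promoter table held 52 of the 57 members, each with 250 bases before and 50 after the start. The octamer was found in 13 of 16 H2B windows, 10 of 13 H2A windows and 0 of the 23 windows of H1, H3 and H4, and in 1.77% of the 35116 promoters in the table. In 7 cases a single octamer stood in the windows of both an H2A and an H2B gene. CCAAT was in 44 of the 52 windows (84.6%, against 34.6% of all), TATAAA in 34 (65.4%, against 11.5%), and either E2F form in 11 (21.2%, against 1.15%). The median difference was -0.23 in the 23 members with an octamer and -0.29 in the 29 without. It was -0.34 in the 34 members with TATAAA and -0.19 in the 18 without. It was -0.41 in the 11 with an E2F form and -0.28 in the 41 without. These contrasts mix histone types, and in divergent pairs the windows of both genes can hold the same site. The E2F matches of the H2B windows lay at -209 to -197, on the opposite strand. In H2BC11, H2BC13, H2BC14 and H2BC17 they were the same bases as the match at -50 in the H2A partner. H2BC14, H2BC4, H2BC17 and H2AC8 held TATAAA only at -220 to -206, where it was the partner's match. With an E2F form the median was -0.20 in H2A (-0.26 without) and -0.55 in H2B (-0.18 without). With an octamer it was -0.26 in H2A (-0.22 without) and -0.18 in H2B (-0.38 without). With TATAAA it was more negative than without in each of the 5 types. None of these contrasts was tested.

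Of the 6 linker histones, 1 fell (16.7%, against 4.11% of all genes) and 0 rose, and their median difference was -0.20. That median was -0.075 without TwistER replicate 1 and -0.10 without GFP replicate 3. H1-5 read 7.58, 7.29 and 7.41 in GFP and 6.69, 6.72 and 6.67 in TwistER. The TwistER arrays were nearly equal and all below GFP, a 1.67-fold fall (-0.74 ± 0.11, limma adjusted p = 0.00469, at most 0.0288 under any alternative). H1-4 read 9.09, 9.43 and 9.53 in GFP and 9.02, 9.13 and 9.08 in TwistER, where GFP replicate 1 was the low GFP array and overlapped the TwistER arrays. Its difference of -0.28 ± 0.14 did not pass (limma adjusted p = 0.292), whereas leaving out GFP replicate 1 gave -0.41, which did (adjusted p = 0.0262). H1-2 read 9.11, 9.56 and 9.50 in GFP and 9.39, 9.42 and 9.17 in TwistER, with overlapping groups and a difference of -0.07 ± 0.15 (95% interval -0.41 to 0.27). H1-1 read 6.24, 6.31 and 6.71 against 5.97, 6.22 and 6.58, and H1-3, in the lower quartile, 3.37, 3.23 and 3.42 against 2.74, 3.36 and 3.22. Both overlapped, with differences of -0.16 ± 0.19 and -0.23 ± 0.17. All 6 H1 windows held AAACACA, the letters of the H1 box, on either strand, which 5.64% of all promoters hold. In H1-1 the only match was on the opposite strand at -183, and the other H1 genes had one on their own strand at -119 to -105. The H1-5 stretch, on the minus strand, shows AAACACA before a pair of CCAAT matches, with no TATAAA match (chr6:27867589-27867728, GRCh38.p14).
H1-5: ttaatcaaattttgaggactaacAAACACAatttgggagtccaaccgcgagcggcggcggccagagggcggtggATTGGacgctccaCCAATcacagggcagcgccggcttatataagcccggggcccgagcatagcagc

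All 8 H3 genes had negative differences, 2 fell (25%, against 4.11% of all genes), and the median difference was -0.40. In 5 of the 8 (62.5%, against 14.5% of all genes) the TwistER arrays lay below all GFP arrays. H3C10 read 5.16, 4.93 and 4.86 in GFP and 4.57, 4.35 and 4.14 in TwistER. It fell 1.54-fold (-0.63 ± 0.14, limma adjusted p = 0.03), and its highest adjusted p with 1 array left out was 0.115. H3C11 read 8.52, 8.73 and 8.64 in GFP and 8.16, 8.08 and 8.24 in TwistER. It fell 1.38-fold (-0.47 ± 0.11, limma adjusted p = 0.0338) and kept its call in only 1 of the fits that left out an array, the one without GFP replicate 1. Its highest limma adjusted p among them was 0.149, without TwistER replicate 2. H3C2 read 8.67, 8.87 and 8.60 in GFP and 8.38, 8.17 and 8.23 in TwistER, without overlap, and narrowly did not pass (-0.45 ± 0.12, limma adjusted p = 0.0534). It passed under 6 alternatives, among them median centring and the fit without GFP replicate 1 (adjusted p = 0.0376 in the latter). H3C8, in the lower quartile, read 3.05, 3.20 and 2.97 in GFP and 2.81, 3.00 and 3.29 in TwistER, which overlap. H3C3 (-0.45 ± 0.12), H3C1 (-0.35 ± 0.13), H3C7 (-0.11 ± 0.16) and H3C12 (-0.10 ± 0.22) did not pass, and H3C1 passed without GFP replicate 1 (limma adjusted p = 0.0461). The promoter of H3C10, plus strand, has CCAAT and TATAAA matches and no octamer (chr6:27809911-27810050, GRCh38.p14).
H3C10: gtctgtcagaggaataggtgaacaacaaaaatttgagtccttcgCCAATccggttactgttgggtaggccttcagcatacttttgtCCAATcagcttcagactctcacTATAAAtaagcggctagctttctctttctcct

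The 13 H4 genes held 0 calls in either direction, where 8.83% of all genes changed, and had a median of -0.29. limma gave 3 of them an unadjusted p under 0.05, all lower, where 11.1% of all genes had one. In 4 H4 genes (30.8%, against 14.5% of all genes) the TwistER arrays lay below all GFP arrays. GFP replicate 1 differed from the other GFP arrays most in this type: it was above their mean in 10 of the 13 genes, by a median of 0.38, against -0.01 over all genes. H4C2 read 7.17, 6.44 and 6.34 in GFP and 5.98, 6.08 and 5.90 in TwistER, with a high GFP replicate 1 and no overlap. Its difference of -0.66 ± 0.21 did not pass (limma adjusted p = 0.0944). The smaller difference of -0.40 left after dropping GFP replicate 1 did pass (adjusted p = 0.0343). H4C3 read 9.67, 8.99 and 8.81 in GFP and 8.79, 8.82 and 8.76 in TwistER, with a difference of -0.37 ± 0.21. H4C13 read 6.96, 6.14 and 6.16 against 5.93, 5.77 and 6.09, and H4C5, in the lower quartile, 3.52, 2.81 and 2.99 against 2.91, 2.90 and 2.94. In all of these GFP replicate 1 was the highest array, and without it the median over H4 was -0.14.

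The shared values of H4C14 and H4C15 went the other way. They were 5.62, 6.74 and 6.81 in GFP and 6.13, 6.27 and 5.92 in TwistER, so that GFP replicate 1 was the lowest of all arrays. The difference of -0.29 ± 0.29 did not pass. Leaving out GFP replicate 1 gave -0.67, which passed (limma adjusted p = 0.0105), so these genes make 2 of the 15 calls of that fit. A probe set annotated to both genes, outside the members, read 9.40, 9.52 and 9.42 in GFP and 8.97, 9.06 and 8.88 in TwistER (-0.47 ± 0.11, limma adjusted p = 0.028). Of 13 H4 genes 11 had negative differences, and H4C1 (0.03 ± 0.12) and H4C6 (0.10 ± 0.15) had positive ones. The H4C2 promoter, minus strand, has a TATAAA match and neither CCAAT nor an octamer in the stretch shown (chr6:26027284-26027423, GRCh38.p14), and CCAAT was in 3 of 11 H4 windows.
H4C2: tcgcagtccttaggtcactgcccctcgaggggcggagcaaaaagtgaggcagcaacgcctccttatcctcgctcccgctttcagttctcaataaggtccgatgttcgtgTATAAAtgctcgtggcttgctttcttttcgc

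**Figure D4:**
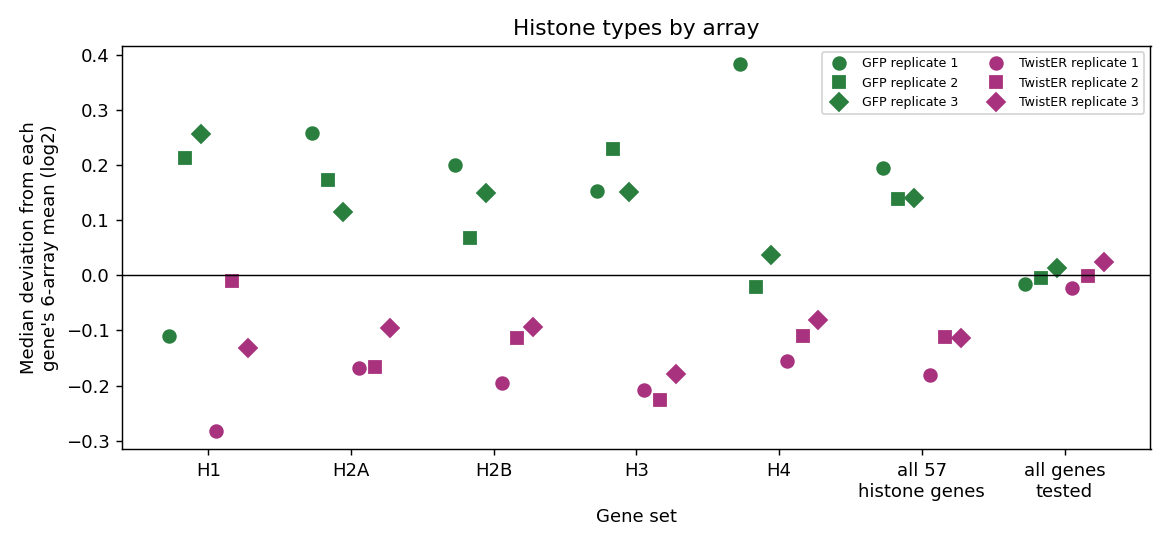
For each histone type, all 57 histone genes and all genes tested, points give each array's median deviation from the 6-array mean of its genes (vertical axis, log2), in green for GFP and purple for TwistER. All histone genes together sit at 0.14 to 0.19 in the GFP arrays and -0.18 to -0.11 in the TwistER arrays. GFP replicate 1 is low within H1 (-0.11) and high within H4 (0.38).

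Some replication-dependent genes are known to give polyadenylated messenger RNA as well, which can persist outside S phase. All 6 genes listed for this (H1-2, H2AC6, H2BC4, H2BC5, H2BC12 and H2BC21) had negative differences, with a median of -0.33. In 4 of them (66.7%) the TwistER arrays all lay below the GFP arrays, against 14.5% of all genes. All 6 averaged above the median of all genes. Of the genes that bright outside the 57 members, 22.2% did so and 6.53% fell. H2AC6 was the 1 that fell (16.7%, against 4.11% of all genes). H2BC5 read 8.42, 8.33 and 8.36 in GFP and 7.94, 8.04 and 8.11 in TwistER, and H2BC21 9.57, 9.36 and 9.63 against 9.19, 9.19 and 9.22. Both had TwistER arrays wholly below GFP, with differences that did not pass (-0.34 ± 0.10 and -0.32 ± 0.11, limma adjusted p = 0.0891 and 0.131). H2BC5 passed among genes above the median brightness and with array weights (limma adjusted p = 0.0474 and 0.0301).

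Members differed in signal strength. Of the 57 members, 14 averaged within the lower quartile of all genes, and 0 of these passed, and their median was -0.11. Of the 43 above it 8 fell (18.6%, against 4.11% of all genes), 40 had a negative difference, and the median was -0.34. Among the 31 above the median of all genes, 30 had a negative difference, against 53.8% of other genes that bright. Of these 31, 7 fell (22.6%), against 6.53% of those other genes. In 20 of the 31 (64.5%) the TwistER arrays all lay below the GFP arrays, against 22.2% of the others. The 49 members on chromosome 6 and the 7 on chromosome 1 had medians of -0.28 and -0.29, with all 8 calls on chromosome 6, and the member on chromosome 12, H4C16, had -0.27 ± 0.17.

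**Figure D5:**
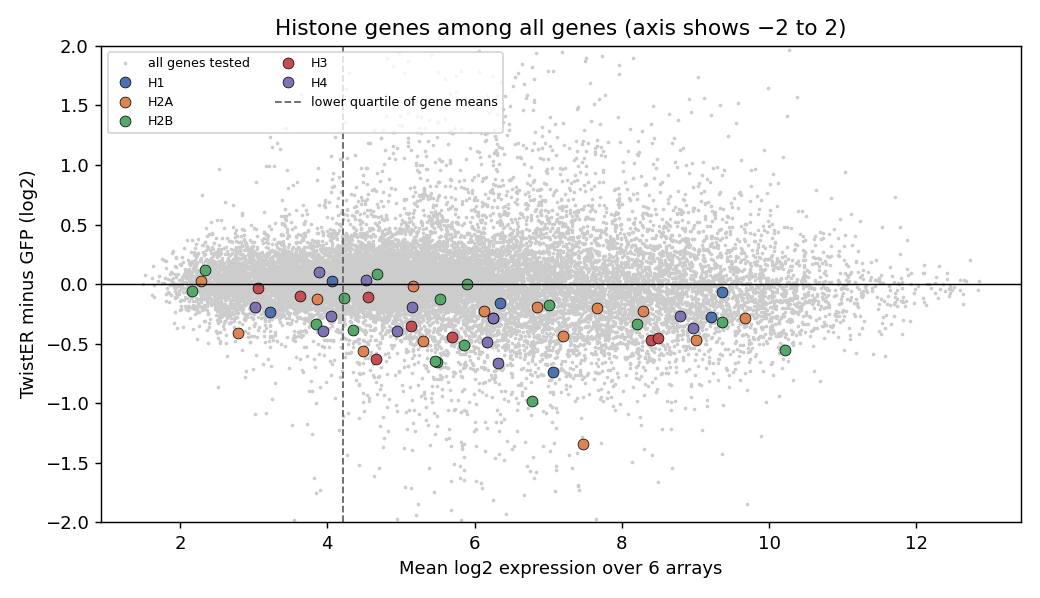
The mean log2 expression over 6 arrays (horizontal axis) is plotted against the TwistER minus GFP difference (vertical axis, log2, shown from -2 to 2, with genes beyond these limits not drawn) for all genes tested in grey and histone genes in colour. Histone points left of the dashed lower quartile (4.21) have a median of -0.11, and those right of it -0.34.

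Probe sets with several symbols, all of them histones, numbered 15. Counting each as a member gave 11 lower and 0 higher, with a median of -0.28. The 3 added calls were the H4C14 and H4C15 probe set above, present as a pair of rows with identical values, and a probe set for H3C10 and H2AC13. The last read 7.34, 7.17 and 7.05 in GFP and 6.84, 6.47 and 6.50 in TwistER (-0.59 ± 0.14, limma adjusted p = 0.0344). A probe set annotated to H2BC12, H2BC12L, H2BC17 and H2BC5 read 9.02, 10.84 and 11.07 in GFP and 10.39, 10.57 and 10.79 in TwistER. There GFP replicate 1 was far below every other array, and the difference of 0.27 ± 0.46 did not pass.

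Replication-independent variants are made also outside S phase. Of 13 measured, 1 fell (7.7%, against 4.11% of all genes) and 0 rose, and their median difference was -0.08. The gene that fell was H2AJ, a variant of H2A (-0.56 ± 0.13, limma adjusted p = 0.0299). MACROH2A1, which carries a large extra domain, had -0.49 ± 0.20, H2AX, the variant phosphorylated at DNA breaks, -0.31 ± 0.12, and H2BW1 0.22 ± 0.14, none of which passed. Without GFP replicate 1, 4 fell (30.8%, against 8.09% of all genes) and 0 rose. H2AX and MACROH2A1 were among these 4 (limma adjusted p = 0.0443 and 0.00251). The difference between these variants and the replication-dependent genes was not tested.

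Of 8 measured genes that drive histone gene transcription, 2 fell (25%, against 4.11% of all genes) and 0 rose. Both that fell were cyclin E genes, and the median difference of the 8 was -0.05. CCNE2, at 9.08 ± 0.27 in GFP against 8.38 ± 0.12 in TwistER (SD, n = 3), fell 1.62-fold (-0.70 ± 0.15, limma adjusted p = 0.0254). CCNE1 fell 1.47-fold (-0.56 ± 0.13, adjusted p = 0.0308). NPAT, the co-activator of the histone locus, read 9.37, 9.004 and 9.16 in GFP and 9.41, 9.42 and 9.37 in TwistER, which gave 0.22 ± 0.12 and no call (limma adjusted p = 0.349), and HINFP, the activator of H4 genes, had 0.19 ± 0.21.

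Of 25 genes for processing and decay of histone messenger RNA, 1 fell and 1 rose, and the median difference was -0.14. The 1 that fell is 4% of the list, near the 4.11% of all genes called lower, and 4.72% of all genes were called higher. SLBP, which binds the stem-loop, read 9.87, 9.83 and 9.78 in GFP and 9.60, 9.32 and 9.53 in TwistER. The groups did not overlap, and its difference of -0.34 ± 0.11 did not pass (limma adjusted p = 0.113). SNRPF, an Sm protein of small nuclear ribonucleoproteins, fell (-0.98 ± 0.24, adjusted p = 0.0369), and XRN1, a cytoplasmic 5′ exonuclease, rose (0.59 ± 0.10, adjusted p = 0.00939). ERI1, the exonuclease that trims the histone stem-loop, had -0.47 ± 0.15 and SNRPG, another Sm protein, -0.54 ± 0.19, and neither passed. Without GFP replicate 1, 2 of the list fell (8%, against 8.09% of all genes) and 1 rose (6.97% of all genes did). Of 22 histone chaperones 0 rose or fell in limma, where 8.83% of all genes changed. Also 0 had an unadjusted p under 0.05, and the median was -0.08. The largest differences were in IPO4, an importin that carries H3 and H4 (-0.40 ± 0.24), MMS22L (-0.33 ± 0.17), DAXX, an H3.3 chaperone (0.29 ± 0.20), and HJURP, the CENPA chaperone (0.27 ± 0.24). Without GFP replicate 1, 3 of the 22 fell (13.6%, against 8.09% of all genes).

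Of 39 measured genes of DNA replication and S phase 4 fell (10.3%, against 4.11% of all genes) and 0 rose. The median difference was -0.18, and 10 fell without GFP replicate 1 (25.6%, against 8.09% of all genes). In 16 of the 39 (41.0%) the TwistER arrays lay below all GFP arrays, where 14.5% of all genes did so. Most of the 39 averaged above the median of all genes. Of the genes that bright outside the 57 histone members, 22.2% did so and 6.53% fell. RRM2, a subunit of ribonucleotide reductase, fell 1.49-fold (-0.57 ± 0.11, limma adjusted p = 0.0141), and so did by their own amounts the clamp loader subunit RFC3 (-0.55 ± 0.14), the primase PRIM1 (-0.55 ± 0.14) and the origin-licensing factor CDC6 (-0.48 ± 0.10). PCNA, the sliding clamp, read 9.12, 9.36 and 9.21 in GFP and 9.11, 9.07 and 8.93 in TwistER, and its -0.19 ± 0.12 did not pass. Of 14 genes of G2 and mitosis 0 rose or fell in limma, with a median of -0.06. At an unadjusted p under 0.05, 2 were lower (14.3%, against 11.1% of all genes) and 0 higher. Without GFP replicate 1, 3 of the 14 were lower (21.4%, against 8.09% of all genes), with a median of -0.17. The largest differences among the 14 were in CDK1 (-0.56 ± 0.28), CCNB1 (-0.40 ± 0.11), BUB1 (-0.32 ± 0.12) and AURKB (-0.26 ± 0.25). MKI67, a marker of cycling cells, read 8.99, 9.18 and 9.14 in GFP and 9.01, 9.08 and 9.14 in TwistER, a difference of -0.03 ± 0.11 (limma adjusted p = 0.927). The part of these S phase genes in the histone values was not tested, and cell-cycle distributions were not analysed here.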

How the data were processed

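Biotin-labelled total RNA from 6 H358 cultures was measured on Affymetrix arrays by a core facility, per the labels' protocols. The authors deposited log2 expression values per probe set made with RMA, per the submitters' processing notes. The sources used here give neither the version of RMA nor its probe definitions. The method subtracts background, equalises intensity distributions and summarises probes, so a shift of the whole transcriptome would not show. The platform annotation supplied with the data named 19460 of 33297 probe sets with 1 symbol. The brightest probe set over 6 arrays stood for each of the 769 genes that had more than 1, without a filter on brightness, which left 18417 genes. Groups came from the treatment labels (GFP, TwistER). Titles name biological replicates without saying how cultures were separated: p-values therefore reflect the spread among 6 arrays, whose number limits precision. The labels give no batch.

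Group differences came from limma 3.58.1 (R 4.3.3; linear model with moderated variance, 2-sided, no covariates) with Benjamini-Hochberg adjustment over 18417 genes and a threshold of 0.05. The fit was tested on simulated data. It recovered 56% of 100 genes shifted by 1 log2 unit and 4% of 100 shifted by 0.5, with 1 false call. Far fewer genes were shifted there than the 1627 called in the data, which makes the adjusted threshold stricter in the simulation. These recovery rates therefore do not carry over to the data, where the rate was not measured. A member difference of about 0.5 that did not pass is not shown to be absent. Medians over members have no test. Motifs were searched on both strands of RefSeq promoters. Python 3.11.15, pandas 2.3.3 and matplotlib 3.10.9 made tables and plots. The members and lists were chosen with earlier results of these data known. Named are members that passed, all members of types with up to 6, otherwise the 2 largest differences, the brightest and the dimmest member, members of the polyadenylated and testis lists, up to 4 genes of other lists, and SLBP, NPAT, PCNA and MKI67. Further genes were named after their values were seen. Alternatives were 3 normalizations, brightness filters, probe set averages, repeated values counted once, probe sets with several symbols, a variance trend with robust fitting, weights per array, a block for the replicate number and each array left out; list counts without GFP replicate 1, and histone counts without dim members or without H2AC1 and H2BC1, were chosen after seeing the data.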

Additional observations from a re-analysis of the deposited data

How the results depend on the processing

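The numbers of calls moved most with the arrays. With array weights 3268 genes changed and 20 histone genes were lower, against 1627 and 8. With 1 array left out the histone genes called lower ranged from 3 to 15 and all changed genes from 831 to 2773, the highest without GFP replicate 1. Under the other alternatives 6 to 11 histone genes were lower, the 6 after leaving out H2AC1 and H2BC1, and 0 were higher under any alternative. The histone median stayed between -0.34 and -0.25, while that of H4 was -0.17 with array weights and those of H1 and H4 reached -0.075 and -0.14 with 1 array left out. Same-numbered arrays deviated together with correlations of 0.139, 0.0154 and 0.157 for numbers 1 to 3, so the labels' numbers were not taken as pairs; with the replicate block 1592 genes changed and 7 histone genes were lower, H3C11 losing its call. Cyclic loess took the calls of H3C11 and H2BC14. Calls were also gained. Apart from array weights and left-out arrays, H3C2 passed with median centring, both brightness filters and the variance trend. H2BC5 passed with the filter at the median brightness. Uncalled genes near 0 changed sign: H1-6 was -0.0018 with median centring, -0.00048 with cyclic loess and -0.032 with array weights, H2AC8 -0.0043 with median centring, and H2BC7 0.010 with array weights. With 1 array left out they ranged from -0.044 to 0.15 (H1-6), -0.070 to 0.11 (H2AC8), -0.13 to 0.012 (H2BC7), -0.21 to 0.018 (H1-2), -0.16 to 0.076 (H3C8) and -0.34 to 0.016 (H4C5). For these alternatives other than fewer arrays, the cause was not tested. Signal over background was not measured, and what it did to the 14 members in the lower quartile was not tested.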
